A study of Mus musculus with 12 samples.

Results

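The xenobiotic and steroid metabolism enzymes of the mouse kidney were followed through an infusion of angiotensin II (ANG II) in mice with and without the type 1A angiotensin receptor. The set was a list of 38 genes from 9 enzyme families: cytochrome P450s with their reductase, epoxide hydrolases, flavin monooxygenases, carboxylesterases, aldo-keto reductases, aldehyde and alcohol dehydrogenases, cytosolic and microsomal glutathione transferases, and sulfotransferases. Every probe set annotated to one of these genes alone was used, and the mean of the log2 values of a gene's probe sets stood for the gene. This gave 37 measured genes with 61 probe sets, of 18193 genes on the array. Por, the reductase that passes electrons to the P450s, had no probe set of its own and was not analysed here.

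These enzymes handle foreign compounds and the body's own lipids and steroids in steps. P450s, flavin monooxygenases, epoxide hydrolases, esterases and dehydrogenases oxidise, reduce or hydrolyse a substrate, and transferases then join it to glutathione or sulfate so that it can be carried into urine or bile. In the kidney most of them are known from the proximal tubule, where some also make or inactivate signalling molecules such as epoxyeicosatrienoic acids, retinoids and steroid hormones. ANG II acts on the kidney mainly through type 1 receptors, of which rodents have an A form, encoded by Agtr1a, and a closely related B form.

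Total RNA of snap-frozen kidneys was hybridised to Affymetrix Mouse Genome 430 2.0 arrays, 1 per mouse, from male F1 (C57BL6 X 129/SvEv) animals 2.5 months old. The 4 groups of 3 mice were wild-type (WT) at baseline, WT after 2 days of ANG II at 1 μg/kg/min, AGTR1A-KO (KO) at baseline, and KO after the same infusion. All 12 mice are labelled as on an NS diet. A vehicle infusion in the baseline groups and the make of the deleted allele were not given in the sources used here. The comparison of the ANG II response between genotypes asks which changes need the A form of the receptor, and a change in KO mice is one that occurred without it.

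Each deposited value was a ratio in which a probe set's median across the 12 arrays is 1, so changes of a gene can be compared, but levels of different genes cannot, no marker can be read as absent, and the labelled tissue could not be checked by marker levels. The Agtr1a ratio was 1.36 to 1.40 in the WT baseline arrays, 0.957 to 1.00 in WT after ANG II, 0.923 to 1.04 in KO at baseline and 0.917 to 1.05 in KO after ANG II. The targeted gene was thus higher in the WT baseline arrays than in every other array. Whether its probe set lies in the deleted part was not given. Over probe sets, log2 ratios had an SD of 0.268 to 0.342 in WT after ANG II and 0.164 to 0.262 in the other 3 groups. The log2 difference between 3' and 5' Actb probe sets, a sign of RNA quality, was 0.0747 to 0.15 in WT after ANG II and -0.0517 to 0.0345 in the others. The same difference for Gapdh was -0.0601 to 0.0584 in WT after ANG II and -0.053 to 0.0316 in the others, so it did not set these arrays to 1 side. The part of the Actb shift in the WT response was not tested.

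In WT kidneys the infusion lowered more of the enzymes than it raised, and most of the falls, all but those of Sult1c2 and Gstp1, were of oxidising, reducing or hydrolysing enzymes. A gene was called at an adjusted p under 0.05 (limma, Benjamini-Hochberg over all 18193 genes). Of the 37 genes 14 fell and 4 rose, that is 37.8% and 10.8%, where 15.6% of all genes fell and 10.9% rose (26.5% in either direction). The members were chosen with earlier results of these data known. Here and below, a share of members beside that of all genes is therefore a description and no test of the set. Without overlap between the groups were 15 genes lower and 5 higher, beside 21.3% and 19.8% of all genes. The 22 enzymes other than glutathione transferases had 13 falls and no rise. The 15 glutathione transferases had 4 rises and 1 fall, but these rises (Gsta2, Gsta4, Mgst1 and Mgst2), the only ones of the 37 genes, each lost their call under at least 1 setting. Quantile normalization left 1 rise, and leaving out WT baseline array 2 or WT ANG II array 1 or 3 left 2. All 9 families except the microsomal glutathione transferases held at least 1 member that fell.

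In KO kidneys 5 genes rose and 9 fell, that is 13.5% and 24.3%, where 5.82% of all genes rose and 7.00% fell (12.8% in either direction). Groups did not overlap for 9 genes higher and 15 lower, beside 23.0% and 15.4% of all genes. The glutathione transferases had 6 falls and no rise, while the other 22 enzymes had 5 rises and 3 falls. The rises numbered 3 without KO baseline array 1 or 2 or KO ANG II array 3. P450s, epoxide hydrolases and carboxylesterases had falls and no rise called in either genotype. The difference between the responses, KO minus WT, was called higher for 12 genes (32.4%) and lower for 5 (13.5%), beside 8.86% and 4.12% of all genes (13.0% in either direction). All 12 called higher were enzymes other than glutathione transferases, and all 5 called lower were glutathione transferases. The split is one of calls: those of Gsta3 and Mgst1 (lower) and Akr1c14 (higher) did not hold under every setting. Ephx1, of the other enzymes, had a difference of -0.63 that was not called. Over all 37 genes the median log2 change was -0.06 in WT and -0.13 in KO, beside 0.03 and 0.05 over all genes measured. The median log2 difference was 0.49 over the 22 other enzymes and -0.35 over the 15 glutathione transferases, beside 0.01 over all genes.

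**Figure D1:**
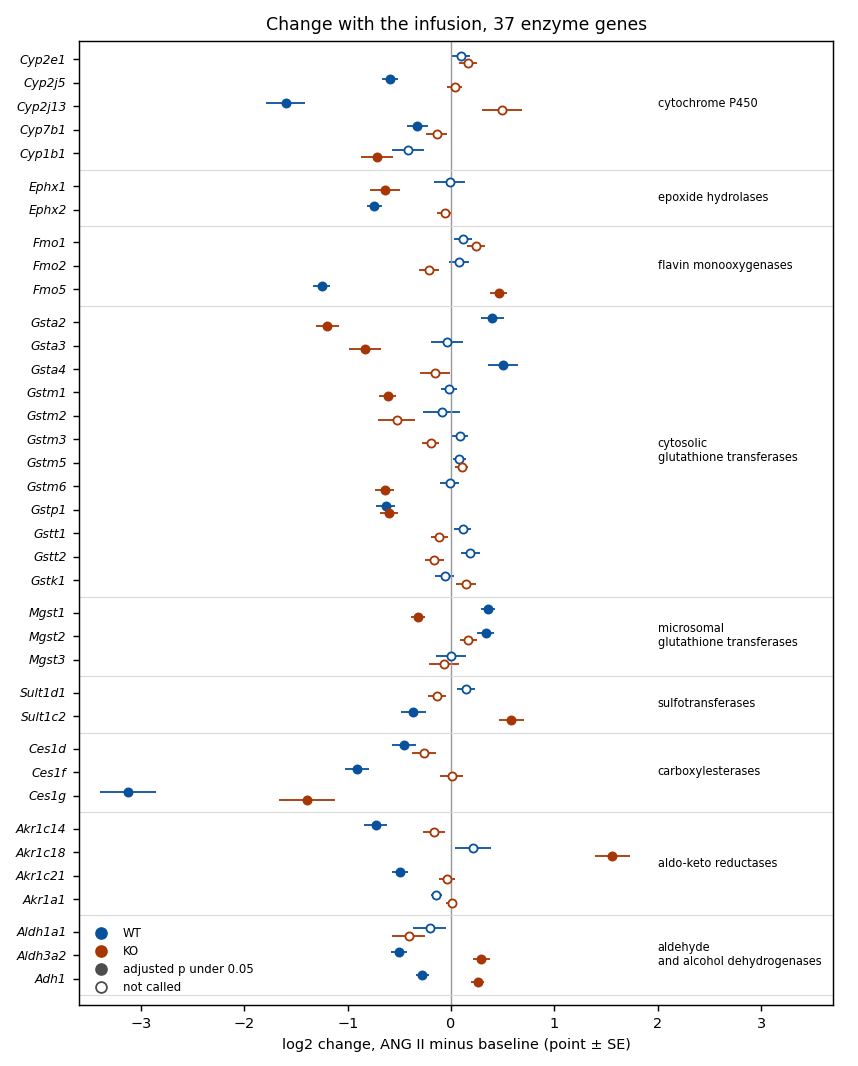
Log2 change with ANG II (horizontal axis, ANG II minus baseline, point ± SE, 3 arrays a group) for the 37 enzyme genes by family, in WT (blue) and KO (brown), with filled points where limma's adjusted p was under 0.05. Filled blue points lie left of 0 in 14 genes and right of 0 in 4, and filled brown points lie left of 0 in 9 and right of 0 in 5.

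Among the P450s, Cyp2j13, a member of the Cyp2j cluster of fatty acid epoxygenases, changed most. Its ratio in the WT baseline arrays was 1.01, 0.943 and 1.28, and after ANG II it was 0.285, 0.519 and 0.294. In KO it was 0.97, 0.992 and 1.20 at baseline and 1.40, 1.48 and 1.55 after ANG II. The WT arrays after the infusion were the 3 lowest of all 12, those of KO were the 3 highest, and neither response had overlapping groups. The WT fall was 3.04-fold (log2 -1.60 ± 0.19 SE, adjusted p = 0.000164), the KO change of 0.49 ± 0.19 was not called (adjusted p = 0.11), and the responses differed by 2.09 ± 0.27 (adjusted p = 0.000478). In rank this difference was the 18th highest of 18193 genes.

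Cyp2j5, a kidney epoxygenase that makes epoxyeicosatrienoic acids from arachidonic acid, fell in WT by 0.59 on the log2 scale (SE 0.08, adjusted p = 0.000277). Its change in KO was 0.03, and the responses differed (0.63 ± 0.11, adjusted p = 0.00279). Both of its probe sets were called lower in WT. Cyp7b1, the oxysterol hydroxylase that also acts on dehydroepiandrosterone, fell in WT by 0.33 (SE 0.10, adjusted p = 0.0347), and 2 of its 3 probe sets were called (-0.55 and -0.45) while the third was at 0.01. Quantile normalization ended the Cyp7b1 call (adjusted p = 0.229), as did leaving out WT baseline array 1 or 2 or WT ANG II array 1 or 3 (0.0781 to 0.146), array weights (0.0511) and a fit to the compared groups alone (0.0537). Cyp2e1, which oxidises ethanol and small solvents, was called in neither response (0.09 in WT and 0.16 in KO).

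Cyp1b1, which hydroxylates estrogens and polycyclic hydrocarbons and is induced through the aryl hydrocarbon receptor, stood apart from the other P450s by its high ratio in KO at baseline. The ratios there were 1.83, 1.64 and 1.63, beside 0.987, 1.23 and 0.922 in WT at baseline. After ANG II they were 1.26, 0.905 and 0.966 in KO and 0.638, 0.943 and 0.778 in WT. The KO baseline arrays were the 3 highest of the 12. The fall in KO was 1.64-fold (log2 -0.72 ± 0.15, adjusted p = 0.0118), and the WT change of -0.42 ± 0.15 was not called (adjusted p = 0.0605). Of the 3 probe sets, 2 fell in KO (-1.26 and -0.97) and the third was at 0.08, and quantile normalization ended the KO call (adjusted p = 0.0655). In WT 1 of the 3 was called lower, and their changes ran from -1.06 to 0.33. At baseline 2 were called higher in KO than in WT, and the lowest difference was -0.09.

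The 2 epoxide hydrolases behaved differently from each other. Ephx2, the soluble hydrolase that turns epoxyeicosatrienoic acids into diols, had ratios of 1.01, 0.974 and 1.10 in WT at baseline and 0.594, 0.626 and 0.62 in WT after ANG II. The KO ratios were 0.99, 1.05 and 1.15 at baseline and 1.07, 0.973 and 1.01 after ANG II. The WT infused arrays lay below all 9 others, which overlapped among themselves. The WT fall was 1.67-fold (log2 -0.74 ± 0.07, adjusted p = 4.64e-05), and the responses differed by 0.68 ± 0.10 (adjusted p = 0.00126). Ephx1, the microsomal hydrolase of foreign epoxides, had its highest ratios in KO at baseline (1.54, 1.69 and 1.42) and fell there by 0.64 (SE 0.15, adjusted p = 0.0159) to 0.989, 1.23 and 0.803. Quantile normalization ended that call (adjusted p = 0.109), as did leaving out KO baseline array 2 (0.0663) or KO ANG II array 3 (0.0638).

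Of the flavin monooxygenases, which oxygenate nitrogen and sulfur atoms of drugs and amines, Fmo5 changed, while Fmo1 (0.11 in WT and 0.24 in KO) and Fmo2 (0.07 and -0.21) were called in neither response. The Fmo5 ratio was 0.952, 1.09 and 1.03 in WT at baseline and 0.418, 0.414 and 0.458 after ANG II. KO arrays had 0.83, 0.914 and 1.03 at baseline and 1.25, 1.24 and 1.31 after ANG II. The infused WT arrays were the 3 lowest and the infused KO arrays the 3 highest of the 12. The WT fall was 2.38-fold (log2 -1.25 ± 0.08, adjusted p = 5.11e-06), the KO rise was 1.38-fold (0.46 ± 0.08, adjusted p = 0.0055), and the responses differed by 1.71 ± 0.12 (adjusted p = 1.13e-05). All 3 Fmo5 probe sets were called in both responses, from -1.38 to -1.16 in WT and from 0.43 to 0.51 in KO.

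**Figure D2:**
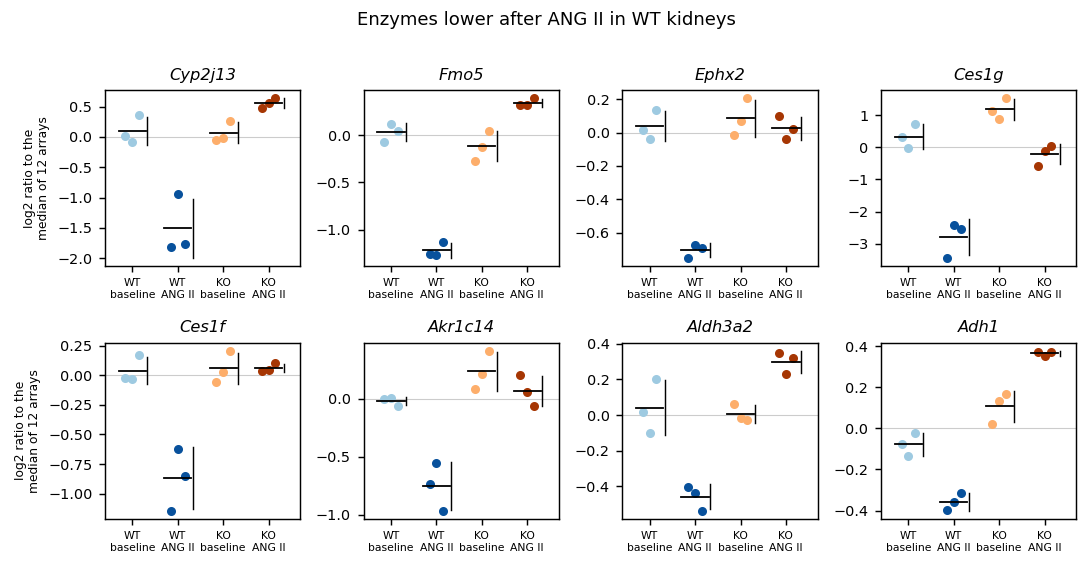
Log2 ratio to the median of the 12 arrays (vertical axis) in each array for 8 enzymes that fell in WT kidneys, with the group mean as a line and ± 1 SD as a bar, n = 3 a group. The WT arrays after ANG II lie below the WT baseline arrays for all 8 genes, and Ces1g fell in KO as well.

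The carboxylesterases, which hydrolyse ester drugs and neutral lipids, all fell in WT. Ces1g had ratios of 1.24, 0.975 and 1.65 in WT at baseline and 0.0921, 0.189 and 0.173 after ANG II. KO arrays had 2.20, 1.83 and 2.88 at baseline and 0.673, 0.927 and 1.02 after ANG II. In both genotypes every infused array was below every baseline array of the same genotype. The WT fall was 8.72-fold (log2 -3.12 ± 0.27, adjusted p = 2.07e-05) and ranked 1 among 18193 genes from the lowest change. The KO fall was 2.63-fold (-1.39 ± 0.27, adjusted p = 0.00742), and it was smaller than the WT fall by 1.73 ± 0.38 (adjusted p = 0.0108).

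Ces1f had ratios of 0.983, 0.979 and 1.12 in WT at baseline, 0.453, 0.65 and 0.555 in WT after ANG II, 0.962, 1.02 and 1.15 in KO at baseline and 1.03, 1.03 and 1.07 in KO after ANG II. Only the infused WT arrays were low, below all 9 others. The fall was 1.88-fold (log2 -0.91 ± 0.11, adjusted p = 0.000227), and the responses differed by 0.91 ± 0.16 (adjusted p = 0.00314). Ces1d, the esterase also known as a triacylglycerol hydrolase, fell in WT by 0.46 (SE 0.12, adjusted p = 0.0142), with 2 of its 3 probe sets called, and the call ended with its plainest-named probe set alone (adjusted p = 0.0774). The 3 genes are near relatives in 1 cluster on chromosome 8, and the probe set of Ces1f is of the kind whose probes can match several transcripts, so signal shared among Ces1 genes cannot be told apart.

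The promoter of Ces1g, the gene with the deepest WT fall, is shown with that of Akr1c18, the member with the highest rise in KO, because these were the 2 of 31 members with a RefSeq promoter sequence that held a D-box. The D-box, bound by the clock-output factors Dbp, Tef and Hlf, was searched as TTATGTAA or TTACGTAA. Promoters were the 250 bases before the gene's start in RefSeq (GRCm38.p6), and 0.962% of 27025 promoters held a D-box on either strand. The other motifs searched were the antioxidant response element TGACNNNGC (10.1% of promoters), the xenobiotic response element TNGCGTG (4.16%), the glucocorticoid response element ACANNNTGT (5.91%), the HNF4 site CAAAGTCCA (0.381%, no member) and an HNF1 site (0.411%, in Sult1d1). Capitals mark the matches: the D-box, which in Ces1g overlaps a glucocorticoid response element match, and in Akr1c18 lies on the other strand, so that the strand shown reads TTACATAA. A match describes these letters and no binding was measured. Ces1g is at chr8:93337210-93337459 (minus strand) and Akr1c18 at chr13:4150647-4150896 (minus strand).
Ces1g: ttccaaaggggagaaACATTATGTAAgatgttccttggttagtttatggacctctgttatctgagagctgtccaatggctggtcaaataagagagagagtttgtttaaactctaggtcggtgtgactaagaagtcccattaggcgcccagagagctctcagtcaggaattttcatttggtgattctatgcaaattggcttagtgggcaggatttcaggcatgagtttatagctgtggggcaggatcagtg
Akr1c18: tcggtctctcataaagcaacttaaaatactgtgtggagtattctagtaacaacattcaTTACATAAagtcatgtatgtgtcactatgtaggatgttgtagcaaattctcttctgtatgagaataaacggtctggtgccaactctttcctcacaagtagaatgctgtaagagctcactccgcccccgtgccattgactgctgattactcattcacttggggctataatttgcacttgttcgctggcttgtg

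Of the aldo-keto reductases, which reduce steroid ketones and aldehydes, Akr1c14 and Akr1c21 fell in WT while Akr1c18 rose in KO. Akr1c14, a hydroxysteroid dehydrogenase that inactivates androgens, had ratios of 0.996, 1.00 and 0.958 in WT at baseline and 0.60, 0.683 and 0.513 after ANG II. In KO it was 1.06, 1.16 and 1.33 at baseline and 1.15, 1.04 and 0.958 after ANG II. The infused WT arrays were below all others, and the KO groups overlapped. The WT fall was 1.66-fold (log2 -0.73 ± 0.11, adjusted p = 0.000685). The responses differed by 0.56 ± 0.15 (adjusted p = 0.0309), but not with quantile normalization (0.141) or without any 1 of 8 arrays in turn (0.0521 to 0.0808), those being all 3 of WT at baseline, WT ANG II 3, KO baseline 1 and 2, and KO ANG II 1 and 2.

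Akr1c18, the hydroxysteroid dehydrogenase that inactivates progesterone, had ratios of 0.98, 1.02 and 0.66 in WT at baseline and 0.946, 1.03 and 1.05 after ANG II. The KO ratios were 0.896, 0.77 and 0.833 at baseline and 3.16, 2.35 and 1.99 after ANG II. The infused KO arrays were the 3 highest, and the WT groups overlapped. The KO rise was 2.95-fold (log2 1.56 ± 0.17, adjusted p = 0.000375), the third highest change of all 18193 genes, and the responses differed by 1.35 ± 0.24 (adjusted p = 0.00332). Akr1c21, which also reduces steroid ketones, fell in WT by 0.49 (SE 0.08, adjusted p = 0.000821) and had a change of -0.04 in KO. Akr1a1, the aldehyde reductase needed for vitamin C synthesis in mice, was not called in WT (-0.14 ± 0.05, adjusted p = 0.0651), although its infused WT arrays were below the baseline ones.

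The aldehyde and alcohol dehydrogenases included 2 genes that fell in WT and rose in KO. Aldh3a2, which oxidises long-chain fatty aldehydes, fell by 0.50 in WT (SE 0.08, adjusted p = 0.000938) and rose by 0.29 in KO (SE 0.08, adjusted p = 0.031). Adh1, which oxidises ethanol and retinol, fell by 0.28 in WT (SE 0.06, adjusted p = 0.0067) and rose by 0.26 in KO (SE 0.06, adjusted p = 0.0192). The differences of the responses were 0.80 ± 0.11 for Aldh3a2 (adjusted p = 0.000756) and 0.54 ± 0.09 for Adh1 (adjusted p = 0.00186). The KO call of Aldh3a2 ended when its probe set was tested over all probe sets (0.0506) and without any KO array but ANG II array 2 (0.0548 to 0.0949). The KO call of Adh1 ended without KO baseline array 1 or 2 or KO ANG II array 3 (0.0523 to 0.0793), and its WT call ended with quantile normalization (0.129).

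Aldh1a1, which makes retinoic acid from retinaldehyde, was called in neither response but was higher in KO than in WT in both states. Its ratios were 0.797, 0.671 and 1.00 in WT at baseline, 0.55, 0.862 and 0.739 in WT after ANG II, 1.43, 1.57 and 1.32 in KO at baseline and 1.11, 0.996 and 1.15 in KO after ANG II. The KO baseline arrays were the 3 highest, and the infused KO arrays were above the infused WT arrays. KO exceeded WT 1.77-fold at baseline (log2 0.82 ± 0.16, adjusted p = 0.009) and 1.53-fold after ANG II (0.62 ± 0.16, adjusted p = 0.0151). The second call ended with quantile normalization (0.0597) and without KO ANG II array 3 (0.0531).

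The glutathione transferases had their largest changes in KO. Of the 12 forms listed as cytosolic, 10 had a log2 change below 0 in KO. The list counts Gstk1, a kappa form of mitochondria and peroxisomes, whose change in KO was above 0. The median change of the 12 in KO was -0.36, beside 0.05 over all genes, while the WT median was 0.03. The falls called in KO were those of the alpha forms Gsta2 and Gsta3, the mu forms Gstm1 and Gstm6, the pi form Gstp1 and the microsomal Mgst1. Gsta2 and Mgst1 rose in WT, as did Gsta4, an alpha form that detoxifies lipid aldehydes, and Mgst2, a membrane form that can also make leukotriene conjugates.

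Gsta2 had ratios of 0.993, 1.01 and 1.22 in WT at baseline and 1.49, 1.35 and 1.39 after ANG II. In KO it was 0.975, 1.03 and 0.931 at baseline and 0.38, 0.396 and 0.514 after ANG II. The infused WT arrays were the 3 highest of the 12 and the infused KO arrays the 3 lowest. The KO fall was 2.30-fold (log2 -1.20 ± 0.11, adjusted p = 0.000202) and the WT rise 1.32-fold (0.40 ± 0.11, adjusted p = 0.0214), with a difference of -1.60 ± 0.16 (adjusted p = 8.14e-05). The WT rise was no longer called with quantile normalization (adjusted p = 0.303) or without WT baseline array 1 or 2 or WT ANG II array 1 or 3 (0.0509 to 0.0898). A probe set shared by Gsta2, Gsta1 and Gm3776 moved the same way (0.59 ± 0.14 in WT, adjusted p = 0.00829, and -1.35 ± 0.14 in KO, adjusted p = 8.85e-05), and signal of such close copies cannot be told apart on it.

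Gsta3 had ratios of 1.04, 0.858 and 1.20 in WT at baseline, 1.19, 0.868 and 0.954 in WT after ANG II, 1.02, 1.35 and 1.43 in KO at baseline and 0.719, 0.627 and 0.771 in KO after ANG II. The infused KO arrays were the 3 lowest, and the WT groups overlapped. The KO fall was 1.78-fold (log2 -0.83 ± 0.15, adjusted p = 0.00583) and both probe sets were called. Its difference from WT (-0.80 ± 0.22, adjusted p = 0.0309) ended with the plainest-named probe set (0.053) and without any 1 of 7 arrays in turn (0.0509 to 0.0724), those being WT baseline 1 and 2, WT ANG II 1, KO baseline 2 and 3, and KO ANG II 1 and 2.

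Gstm6 had ratios of 0.859, 1.08 and 1.00 in WT at baseline, 0.891, 1.02 and 0.997 in WT after ANG II, 1.27, 1.36 and 1.21 in KO at baseline and 0.778, 0.808 and 0.874 in KO after ANG II. The KO baseline arrays were the 3 highest of the 12, and the WT groups overlapped. The KO fall was 1.56-fold (log2 -0.64 ± 0.09, adjusted p = 0.00142), with a difference from WT of -0.63 ± 0.13 (adjusted p = 0.00698). Gstm1, the main mu form of many tissues, fell in KO by 0.62 (SE 0.08, adjusted p = 0.00098), with all 4 of its probe sets called (-0.75 to -0.40), and its change in WT was -0.02. Gstm2 had a KO change of -0.53 ± 0.18 that was not called (adjusted p = 0.0685). The Gstm genes are close copies, and some of their probe sets can match more than one of them.

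Gstp1 was the 1 glutathione transferase that fell in both genotypes, by 0.63 in WT (SE 0.09, adjusted p = 0.000506) and by 0.60 in KO (SE 0.09, adjusted p = 0.00203), and the responses were not called different (0.03, adjusted p = 0.906). Gsta4 rose in WT by 0.50 ± 0.14 (adjusted p = 0.0237), but was not called with quantile normalization (0.0628), with array weights (0.0521) or without WT baseline array 2 or WT ANG II array 1 or 3 (0.0673 to 0.0784). Mgst2 rose in WT by 0.33 ± 0.08 (adjusted p = 0.0108), which quantile normalization ended (0.0566). Mgst1, a microsomal form that protects membranes from peroxides, rose by 0.36 in WT (SE 0.07, adjusted p = 0.00302) and fell by 0.32 in KO (SE 0.07, adjusted p = 0.0123), but its 2 probe sets disagreed. One of them changed by 0.70 in WT and -0.68 in KO, and the other by 0.01 and 0.04 with neither called. Gstm3, Gstm5, Gstt1, Gstt2, Gstk1 and Mgst3 were called in neither response, with log2 changes from -0.06 to 0.19 in WT and from -0.20 to 0.14 in KO.

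**Figure D3:**
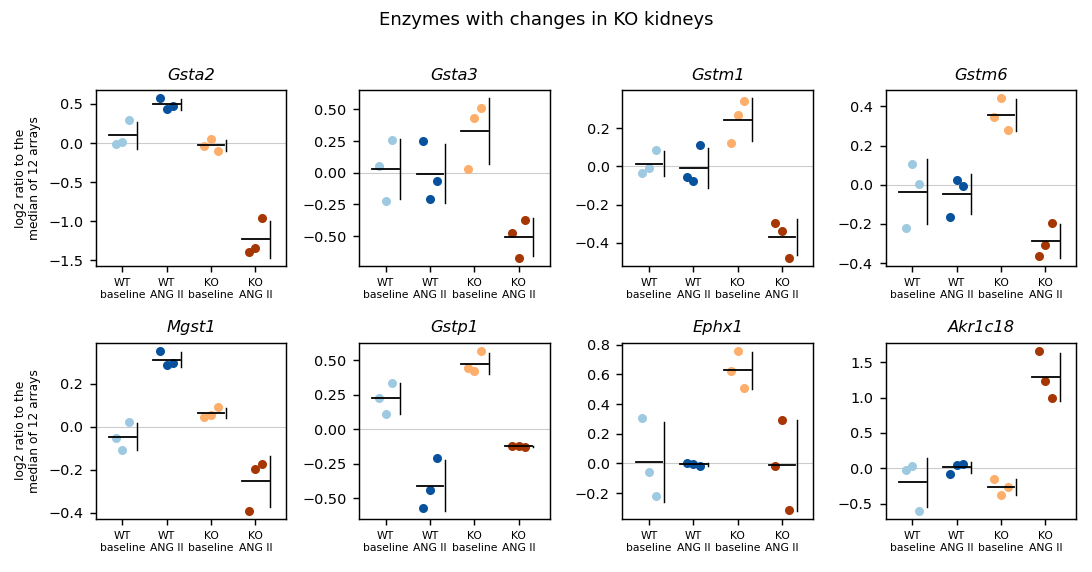
Log2 ratio to the median of the 12 arrays (vertical axis) in each array for 6 glutathione transferases and for Ephx1 and Akr1c18, with the group mean as a line and ± 1 SD as a bar, n = 3 a group. The infused KO arrays are the 3 lowest of all 12 for Gsta2, Gsta3, Gstm1 and Mgst1 and the 3 highest for Akr1c18.

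The promoters of Gsta2 and Gsta3 are shown because both genes fell in KO and each held a different motif of those searched. Gsta3 held an antioxidant response element, the site of the stress factor NRF2, 112 bases before the start, and Gsta2 held a xenobiotic response element, the site of the aryl hydrocarbon receptor, 2 bases before the start. Among all 31 members with a promoter sequence, 3 held an antioxidant response element (Gsta3, Gstm5 and Mgst1), beside 10.1% of all 27025 promoters. A xenobiotic response element was held by 3 (Gsta2, Aldh3a2 and Sult1d1), beside 4.16% of all promoters. Gstm5 was called in neither response, and no binding was measured. Capitals mark the matches. Gsta2 is at chr9:78347146-78347395 (minus strand) and Gsta3 at chr1:21240335-21240584 (plus strand).
Gsta2: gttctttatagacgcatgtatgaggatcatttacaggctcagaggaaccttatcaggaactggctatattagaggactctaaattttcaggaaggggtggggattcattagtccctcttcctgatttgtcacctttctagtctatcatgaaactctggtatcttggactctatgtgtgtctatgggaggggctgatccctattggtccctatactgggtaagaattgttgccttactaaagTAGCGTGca
Gsta3: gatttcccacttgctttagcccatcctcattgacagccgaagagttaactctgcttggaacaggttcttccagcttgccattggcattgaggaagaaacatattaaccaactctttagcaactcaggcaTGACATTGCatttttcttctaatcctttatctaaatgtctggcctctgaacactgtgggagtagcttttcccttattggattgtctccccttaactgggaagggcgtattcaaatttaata

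Of the sulfotransferases, which add sulfate to phenols, catechols and steroids, Sult1c2 changed in both genotypes. Its ratios were 1.10, 1.11 and 1.01 in WT at baseline, 0.833, 0.992 and 0.699 in WT after ANG II, 0.865, 0.73 and 0.663 in KO at baseline and 1.10, 1.07 and 1.20 in KO after ANG II. The infusion lowered it in WT and raised it in KO, with no overlap in either genotype. The infused WT arrays at 0.833 and 0.699 lay within the range of the baseline KO arrays, and the array at 0.992 lay above it. The KO rise was 1.5-fold (log2 0.58 ± 0.12, adjusted p = 0.0106), the WT fall 1.29-fold (-0.37 ± 0.12, adjusted p = 0.0422), and the difference 0.95 ± 0.17 (adjusted p = 0.00355). The WT call ended with quantile normalization (0.123), array weights (0.0991), a fit to the 2 groups alone (0.0659) and without any 1 of 8 arrays in turn (0.0501 to 0.166), those being all 3 of WT at baseline, WT ANG II 1 and 3, KO baseline 2 and KO ANG II 1 and 2. Sult1d1, a catecholamine sulfotransferase, was called in neither response (0.14 in WT and -0.13 in KO).

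Set side by side, the 2 responses share no array. Of the 37 genes, 4 fell in WT and rose in KO (Fmo5, Sult1c2, Aldh3a2 and Adh1), where 1.06% of all genes did so. Gsta2 and Mgst1 rose in WT and fell in KO, as 0.445% of all genes did. Gstp1 and Ces1g fell in both, as 1.72% of all genes did, and no member rose in both, as 1.23% of all genes did. Another 8 were called lower in WT and not called in KO, as 12.8% of all genes were, namely Cyp2j5, Cyp2j13, Cyp7b1, Ephx2, Ces1d, Ces1f, Akr1c14 and Akr1c21, and of these the difference itself was called for all but Cyp7b1 and Ces1d. Gsta4 and Mgst2 were called higher in WT and not called in KO, as 9.22% of all genes were. Called in KO and not in WT were the rise of Akr1c18, beside 3.54% of all genes, and the falls of Cyp1b1, Ephx1, Gsta3, Gstm1 and Gstm6, beside 4.84%, and the difference was called for these but Cyp1b1 and Ephx1. There were 13 genes called in neither response, as 65.1% of all genes were.

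**Figure D4:**
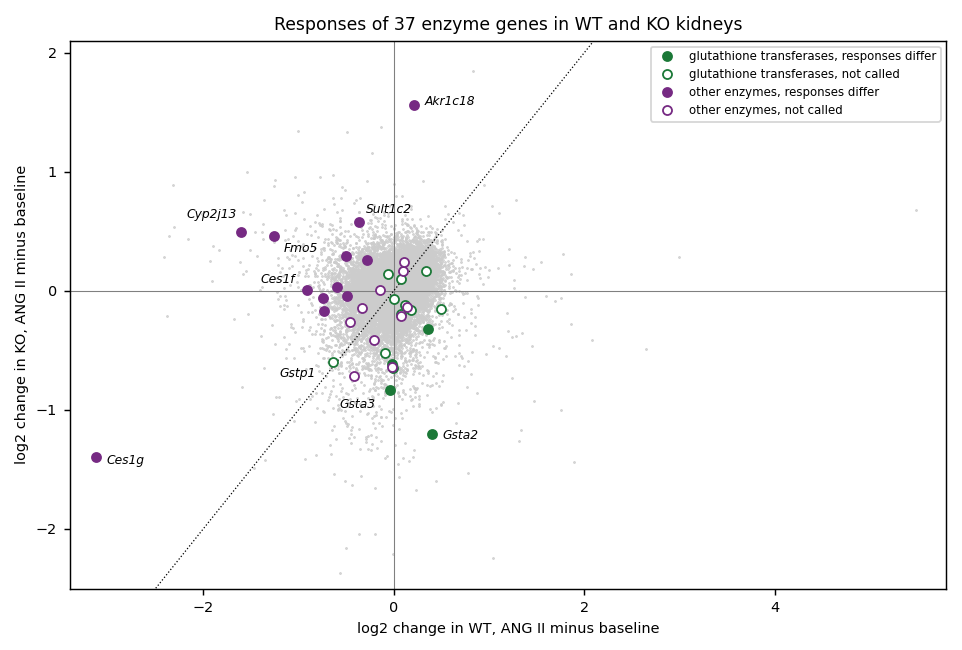
Log2 change with ANG II in KO (vertical axis) against that in WT (horizontal axis) for the 37 enzyme genes, over all genes in grey, with filled points where limma called the responses different and a dotted line of equal change. The 12 filled points of the other enzymes lie above the line and the 5 filled points of the glutathione transferases below it.

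Before the infusion KO and WT kidneys differed in few of these enzymes. Cyp1b1, Ephx1, Gstm6 and Aldh1a1 were higher in KO and Sult1c2 was lower, so 10.8% of the genes were higher and 2.70% lower, beside 5.13% and 2.94% of all genes (8.07% in either direction). Groups did not overlap for 12 genes higher and 7 lower, beside 13.6% and 21.1% of all genes. The log2 differences were 0.71 ± 0.15 for Cyp1b1 (adjusted p = 0.0149), 0.62 ± 0.15 for Ephx1 (0.0236), 0.39 ± 0.09 for Gstm6 (0.0203) and -0.52 ± 0.12 for Sult1c2 (0.0214). Ces1g, at 0.85 ± 0.27, was not called (adjusted p = 0.0744) although its groups did not overlap. Without WT baseline array 3 or KO baseline array 1 the genes called higher were 1 in place of 4, and without KO baseline array 2 they were 2. The call of Cyp1b1 ended without WT baseline 3 (0.0726) or KO baseline 1 (0.0596), of Ephx1 without WT baseline 2 or 3 or KO baseline 1 or 2 (0.0657 to 0.107), of Gstm6 without WT baseline 1 or 3 or KO baseline 1 or 2 (0.0569 to 0.0938), and of Sult1c2 without WT baseline 1 or 2 or KO baseline 2 or 3 (0.0584 to 0.0811). With quantile normalization the calls of Cyp1b1 (0.115), Ephx1 (0.145) and Gstm6 (0.0607) ended as well, and that of Aldh1a1 held under all 20 settings.

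After the infusion the genotypes differed in more of them, with 15 genes higher in KO (40.5%) and 8 lower (21.6%), beside 15.2% and 10.4% of all genes (25.6% in either direction). Groups did not overlap for 16 higher and 10 lower, beside 21.0% and 17.9% of all genes. This comparison shares its arrays with the responses above. Of the 22 enzymes other than glutathione transferases 14 were higher and 1, Sult1d1, was lower (-0.44 ± 0.08, adjusted p = 0.00284). Among the 14, Cyp7b1 lost its call with quantile normalization (0.136) and without KO ANG II array 1 (0.0722). Akr1c21 lost it with quantile normalization (0.104), a fit to the compared groups alone (0.063) and without KO ANG II array 3 (0.055). Aldh1a1 and Sult1c2 also lost it under some settings. Of the 15 glutathione transferases 7 were lower and 1, Gstp1, was higher (0.28, adjusted p = 0.0365), though not with quantile normalization (0.335) or without WT ANG II array 1 or 2 or any KO ANG II array (0.0691 to 0.103). Of the 7 lower calls those of Gsta2, Gstm1 and Mgst2 held under every setting, and 4 did not. Gsta3 lost its call with the plainest-named probe set (0.0574), with array weights (0.0893) and without WT ANG II array 1 or 3 or KO ANG II array 1 or 2 (0.0632 to 0.0972), and Gsta4 under 14 settings, quantile normalization among them (0.137). Gstm3 lost it under 9, the plainest-named probe set among them (0.5), and Mgst1 was at 0.0634 with that probe set. Without KO ANG II array 1 or 2 the lower calls over all 37 genes were 5 in place of 8. Ces1g was 5.97-fold higher in KO (log2 2.58 ± 0.27, adjusted p = 4.23e-05), Cyp2j13 4.19-fold (2.07 ± 0.19, adjusted p = 1.65e-05), Fmo5 2.95-fold (1.56 ± 0.08, adjusted p = 5.07e-07) and Akr1c18 2.43-fold (1.28 ± 0.17, adjusted p = 0.000247). Gsta2 was 3.30-fold lower (-1.72 ± 0.11, adjusted p = 1.31e-06). Sult1c2, lower in KO at baseline, was higher there after the infusion (0.43, adjusted p = 0.0229), but not with quantile normalization (0.0839), with array weights (0.0583) or without WT ANG II array 3 or KO ANG II array 1 or 3 (0.055 to 0.092).

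Several of these genes sit together in the genome. In the RefSeq order of GRCm38.p6, Gstm6, Gstm3, Gstm2 and Gstm1 follow one another on chromosome 3 with no other protein-coding gene between them, and in KO Gstm6 and Gstm1 fell while Gstm3 (-0.20) and Gstm2 (-0.53) were not called. Ces1f and Ces1g are neighbours on chromosome 8, and only Ces1g was called in KO. Akr1c14 and Akr1c18 are neighbours on chromosome 13, where Akr1c14 fell in WT and Akr1c18 rose in KO. The targeted gene is on chromosome 13 too, with 224 to 231 protein-coding genes between it and the 3 Akr1c members.

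Other genes of these pathways were read from lists of 174 genes, of which 147 were measured. In WT 40 fell (27.2%) and 16 rose (10.9%), and in KO 18 fell and 18 rose (12.2% each). Of all genes 15.6% fell and 10.9% rose in WT, and 7.00% fell and 5.82% rose in KO, and the same shares stand beside the counts of the single lists and of the cell type markers that follow. The glutathione synthesis and mercapturate list, whose enzymes make glutathione and trim its conjugates for excretion, had 9 falls and 3 rises among 14 genes in WT. Acy3, which deacetylates mercapturates, fell there by 0.91 (SE 0.10) and Ggt6, a gamma-glutamyl transferase relative, rose by 0.89 (SE 0.07). The list's WT changes ran from -0.91 to 1.46, so that of Ggt6 was not the highest. In KO, where 6 glutathione transferases fell, this list had 3 falls and 3 rises.

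Of 35 other conjugation enzymes 10 fell and 4 rose in WT, and 3 fell and 6 rose in KO. Ugt2a3, a glucuronosyltransferase, fell in WT by 1.25 (SE 0.14) and rose in KO by 0.93 (SE 0.14), a difference of 2.18 ± 0.20 (adjusted p = 4.07e-05). Inmt, a methyltransferase of indoleamines, fell in WT by 1.55 (SE 0.19) with a KO change of 0.17 that was not called. Of 57 other oxidation, reduction and hydrolysis enzymes 12 fell and 3 rose in WT, and 6 fell and 5 rose in KO. Aldh1a7, an aldehyde dehydrogenase close to Aldh1a1, fell in WT by 1.13 (SE 0.17), and Aldh1a2, which makes retinoic acid, fell in KO by 1.38 (SE 0.17).

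Of 20 steroid synthesis and interconversion enzymes 7 fell and 2 rose in WT, and 3 fell and 3 rose in KO. Akr1d1, the steroid reductase of bile acid synthesis, fell in WT by 1.52 (SE 0.17). Hsd3b2 had a difference between responses of 1.02 ± 0.16 (adjusted p = 0.00133), with a change of -0.59 in WT and 0.43 in KO, both called. Of 21 receptors and transcription factors that govern such genes 4 rose and 2 fell in WT, and 1 rose and 3 fell in KO. Nfe2l2, which encodes NRF2, fell in KO by 0.30 (SE 0.09, adjusted p = 0.0448), and Cebpb, a factor of the acute phase response, rose in WT by 0.50 (SE 0.15) and fell in KO by 0.96 (SE 0.15).

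Markers of cell types moved with these groups, and in bulk tissue fewer cells of a type and less RNA per cell cannot be told apart. Of 24 proximal tubule markers 14 fell and 3 rose in WT, and 1 fell and 2 rose in KO. Their summed ratio was 24.7 to 26.4 in WT at baseline, 20.5 to 21.5 in WT after ANG II, 23.0 to 24.0 in KO at baseline and 24.6 to 26.0 in KO after ANG II. The infused WT arrays, in which the oxidising and hydrolysing enzymes were low, were also the lowest for this list. The transporters Slc7a13 and Slc22a7 had the deepest falls there, by 1.91 (SE 0.27) and 1.83 (SE 0.21). The list's median log2 change in WT was -0.28, and the rises were of Cubn (0.60), Slc7a9 (0.37) and Aqp1 (0.34). Of 10 loop of Henle and distal tubule markers 3 fell in WT and 2 rose in KO, and of 12 collecting duct markers 2 fell and 1 rose in WT and 2 fell in KO. Their part in the enzymes' changes was not tested.

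The KO baseline arrays, in which Cyp1b1, Ephx1 and Gstm6 were high, were also high for macrophage, mesenchymal and endothelial markers. The summed ratio of 12 macrophage markers was 21.1 to 33.6 there, beside 9.46 to 12.2 in WT at baseline, 7.85 to 9.44 in WT after ANG II and 10.9 to 14.9 in KO after ANG II. Of these 12, 10 were higher in KO than in WT at baseline, beside 5.13% of all genes, and 9 fell in KO with the infusion and 5 in WT, led by the lysozyme gene Lyz2 (-2.16 ± 0.34 in KO). The summed ratio of 13 vascular smooth muscle and mesenchyme markers was 15.5 to 24.2 in KO at baseline and 10.3 to 15.2 in the other 3 groups, with 6 higher in KO at baseline and 4 that fell in KO. The summed ratio of 12 endothelial markers was 14.6 to 15.4 in KO at baseline and 10.1 to 13.0 in the other 3 groups. Of these markers 3 were higher in KO at baseline. With the infusion 5 fell and 1 rose in KO, and 4 fell and 1 rose in WT. The KO baseline group is the reference of the KO response, and the part of these cells in the falls of the glutathione transferases was not tested.

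Markers of tissues next to the kidney were also read. Of 9 measured adipocyte markers Car3 fell (-1.55 ± 0.11) and Ucp1 rose (0.37 ± 0.10) in WT, and Car3 rose (1.00 ± 0.11), Lpl rose (0.55 ± 0.12) and Scd1 fell (-0.62 ± 0.16) in KO, while Adipoq, the fat cell hormone, was called in neither (0.13 and -0.20). The summed ratio of the adipocyte list was 8.40 to 9.68 over all 4 groups. Of 9 adrenal cortex markers 3 rose in WT (Mc2r, Hsd3b1 and Nr5a1) and 2 in KO (Cyp11b1 and Cyp21a1), and the list's summed ratio was 8.62 to 9.31 and 9.59 to 11.0 in WT before and after ANG II, and 7.65 to 8.17 and 8.87 to 9.28 in KO. Of 12 hepatocyte markers 4 rose (Fga, Apoc3, Fgb and Apoa1) and Ttr fell in WT, and Apoc3 rose in KO, with a summed ratio of 11.7 to 11.9 and 13.8 to 17.0 in WT and 10.6 to 11.3 and 11.8 to 12.6 in KO. The median log2 change of this list was 0.23 in WT and 0.18 in KO. Alb was called in neither response (0.16 in WT and 0.13 in KO), nor was Ahsg (-0.01 and 0.20). The part of these tissues in the enzymes' changes was not tested.

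**Figure D5:**
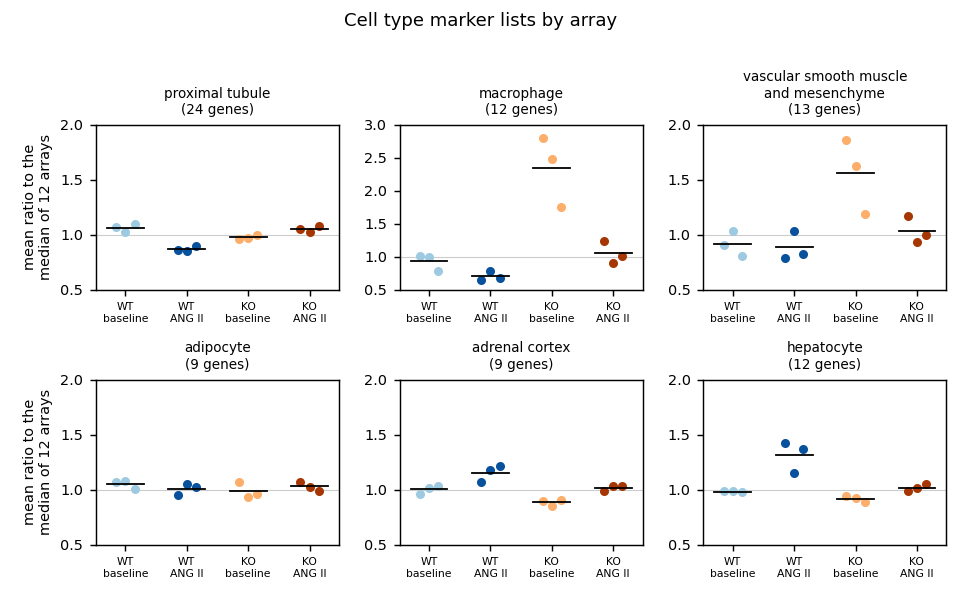
Mean ratio to the median of the 12 arrays (vertical axis) over the measured genes of 6 marker lists in each array, with the group mean as a line, n = 3 a group. The proximal tubule list is lowest in the 3 infused WT arrays (0.856 to 0.895) and the macrophage list highest in the 3 KO baseline arrays (1.76 to 2.80).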

How the data were processed

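Each array measured total kidney RNA of 1 mouse, per the series' design text. The submitters' processing notes name RMA. The deposited values are linear ratios: 45099 of 45101 probe sets had a median within 0.002 of 1, a division the labels do not state. Ratios keep no intensity, so a filter on dim probe sets could not be made and a filter on low spread stood in. The deposited ratios were put on the log2 scale here, 64 control probe sets were left out, and probe sets with 1 gene symbol (34945; 932 had several and 9160 none) were averaged to 18193 genes.

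The fit (limma 3.58.1, R 4.3.3) took all 12 arrays and gave every group its own mean (lmFit and eBayes, no trend, two-sided), with 5 comparisons, Benjamini-Hochberg adjustment over all genes and a threshold of 0.05. SEs are moderated, with 4.73 prior and 8 residual degrees of freedom, and with 3 mice a group their number limits precision. The script was tested on simulated data with changes added to the infused WT group. The simulated noise was normal, independent between genes and arrays, and of the same SD in every group for a given gene. The real arrays need not share these traits, so the counts that follow test the script and need not hold for these data. Of 100 changes of 0.5 on the log2 scale 65 were called, and of 100 changes of 1 the number was 99. Among the unchanged genes 6 were called. A change near 0.5 can thus go uncalled. The members and lists were chosen with earlier results of these data known. Array values were given for called members with the 6 largest changes in the responses or their difference and for those called in both genotype comparisons; up to 3 called genes were named per list and comparison, and others were chosen after their values were seen. Akr1b7 and Hsd11b2 stand in 2 lists each. Alternatives were the probe set summary, normalization, groups fitted, replicate block, array weights, the spread filter and each array left out. The labels' replicate numbers were not taken as pairs: deviations of same-numbered arrays correlated at -0.146 to 0.287, and those of different numbers at -0.366 to 0.25.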

Additional observations from a re-analysis of the deposited data

Results flagged for a closer look

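The response to ANG II differed between KO and WT for 17 of the 37 enzyme genes, beside 13.0% of all genes. This was a test of the difference itself in each gene (limma, Benjamini-Hochberg over all genes). The members were chosen with earlier results of these data known, so the 2 shares are no test of the set. The log2 difference, KO minus WT, was 2.09 for Cyp2j13, 1.73 for Ces1g, 1.71 for Fmo5 and 1.35 for Akr1c18. It was 0.95 for Sult1c2, 0.91 for Ces1f, 0.80 for Aldh3a2, 0.68 for Ephx2 and 0.63 for Cyp2j5. It was 0.56 for Akr1c14, 0.54 for Adh1 and 0.45 for Akr1c21. Below 0 it was -1.60 for Gsta2, -0.80 for Gsta3, -0.68 for Mgst1, -0.63 for Gstm6 and -0.59 for Gstm1. The calls of Gsta3, Mgst1 and Akr1c14 did not hold under every setting, and Mgst1 was at 0.03 with its plainest-named probe set. Groups of 3 arrays were not tested for outliers.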

How the results depend on the processing

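Over 20 settings (19 for the difference of responses, whose test uses all 4 groups), 10 of 18 called members kept their call throughout in WT, 9 of 14 in KO, 14 of 17 for the difference, 1 of 5 for genotype at baseline and 14 of 23 for genotype under ANG II. Of the alternative values for single members, 3465 kept direction and side of the threshold, 52 gained a call, 128 lost one and 3 reversed. The 3 reversals were of Mgst1 with its plainest-named probe set, at 0.0434 in KO, 0.0303 for the difference and 0.0634 for genotype under ANG II. Counts that moved past 1.5 times under a setting that keeps all arrays were, with quantile normalization, 1 member higher in WT and 1 higher in KO at baseline. With the plainest-named probe set they were 3 members with a lower difference and 4 lower in KO under ANG II. With array weights they were 7 higher and 2 lower at baseline and 5 lower under ANG II. Quantile normalization also moved the genes called in the WT response from 4821 to 2591 and under ANG II from 4651 to 2305. The causes were not tested.

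Leaving out 1 array in turn gave 2 to 4 members higher and 12 to 15 lower in WT, 3 to 6 and 8 to 10 in KO, 11 to 12 and 4 to 7 for the difference, 1 to 5 and 0 to 1 for genotype at baseline, and 11 to 15 and 5 to 8 under ANG II. Of these, the counts past 1.5 times from the main ones were 2 higher in WT (without WT baseline 2, WT ANG II 1 or WT ANG II 3), 3 higher in KO (without KO baseline 1 or 2 or KO ANG II 3), 1 or 2 higher at baseline (without WT baseline 3 or KO baseline 1, and without KO baseline 2), 0 lower at baseline (without WT baseline 1 or 2 or KO baseline 2 or 3) and 5 lower under ANG II (without KO ANG II 1 or 2). With the replicate number as a block the counts were 4 and 14 in WT, 5 and 10 in KO, 12 and 7 for the difference, 5 and 1 at baseline, and 16 and 9 under ANG II, and no member lost a call. With that number 7 of 12 arrays correlated best with an array of their own number, a hint from the data and not the design. Ratios keep no signal over background, so dim probe sets could not be told from bright ones.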
